A study of Mus musculus with 6 samples.

Results

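The NDRG family of the mouse consists of *Ndrg1*, *Ndrg2*, *Ndrg3* and *Ndrg4*, and its RNA was followed here in E9.5 hearts that carry or lack *Smyd1*. The members are the rows of the raw count table that bear these symbols, 4 of the 54532 genes in the table. The family was proposed because *Ndrg1* was already known to be higher in *Smyd1-KO* hearts, so the genotype values of its members are given as a description, with no *P*-values and nothing read from whether a member passed a threshold. All 4 members passed the filter on low counts, as did 19372 genes in all.

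NDRG proteins share a fold of the α/β-hydrolase type but are thought to lack hydrolase activity, and the family takes its name from the repression of its founding member by N-MYC. NDRG1 is a cytoplasmic stress protein whose transcription is known to rise with low oxygen through hypoxia-inducible factors (HIFs), and SGK1 and GSK3 phosphorylate the protein. NDRG2 is abundant in adult heart, muscle and brain, NDRG3 is stabilised as a protein by lactate under low oxygen, and NDRG4 is expressed in the early myocardium, where the zebrafish gene supports cardiomyocyte proliferation.

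RNA was measured by RNA-seq in 6 libraries, each from 1 embryonic heart with no treatment. The 3 *Smyd1-KO* hearts came from embryos homozygous for a mutated allele of *Smyd1*, a muscle-restricted histone methyltransferase, in a line kept as *Smyd1* heterozygotes, and the 3 WT hearts from embryos with intact *Smyd1*. The allele is carried by every cell of the embryo, and embryos of both sexes were used. The lowest total was 48627825 counts, of *Smyd1-KO* heart 1, and the highest 64217529, of WT heart 3. Levels are given as CPM, the counts of a gene relative to the TMM-scaled library size, and levels of different genes are compared only as CPM per kb of exon, on which the most abundant gene of a list was also chosen.

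The knocked-out gene was checked first. *Smyd1* had 101, 222 and 206 CPM in mutants 1, 2 and 3, and WT hearts 1, 2 and 3 had 414, 379 and 270 CPM. The genotypes did not overlap, as in 31.3% of tested genes, and the direction was that of the labels. The log2 fold change was -1.01 ± 0.300 (SE), with an adjusted *P* of 0.0973 by edgeR's quasi-likelihood test with Benjamini-Hochberg adjustment. DESeq2 called *Smyd1* lower. At 101 to 222 CPM, *Smyd1* transcripts remained in the mutant hearts. Which exons the allele removes is not given in the sources used here.

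*Smyd1-KO* heart 1 stood apart from the other hearts in its cell type markers. The summed level of 13 cardiomyocyte markers was 9980 CPM in this heart, against 20700 and 20800 CPM in mutants 2 and 3, and 22200, 20500 and 13100 CPM in WT hearts 1, 2 and 3. Their most abundant gene, *Actc1*, which encodes cardiac actin, followed the same order with 3060, 5880 and 5930 CPM in the mutants and 7220, 5400 and 3510 CPM in WT. The heart label held in every library, but *Smyd1-KO* heart 1 and WT heart 3 carried less cardiomyocyte RNA than the other 4. In whole hearts, fewer cells of a type and less RNA per cell cannot be told apart.

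Several neural and neural crest markers were highest in *Smyd1-KO* heart 1. The summed level of 8 neural crest and Schwann markers was 170 CPM there, 83.2 and 35.7 CPM in the other mutants, and 53.5 to 80.1 CPM in WT. Their most abundant gene, *Sox10*, which defines neural crest, had 51.6 CPM in *Smyd1-KO* heart 1 and at most 20.1 CPM elsewhere. The neural marker *Sox1* had 29.9 CPM in *Smyd1-KO* heart 1 and at most 0.203 CPM in any other heart. The 10 neural markers summed to 328 CPM in that heart and to between 137 and 259 CPM in the others, with *Nes* the most abundant. *Nes* itself ran the other way, with 156, 141 and 116 CPM in the mutants and 223, 228 and 179 CPM in WT. Of the 9 neural and 7 neural crest markers tested, edgeR called 0 (2 and 1 with an unadjusted *P* under 0.05, while DESeq2 called *Nes* lower). The mutant means and fold changes of *Ndrg2*, *Ndrg4* and the family sum are therefore given with and without this heart.

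Blood cell markers differed between the genotypes. The 12 erythroid markers summed to 28.6, 286 and 165 CPM in mutants 1, 2 and 3, against 756, 1010 and 969 CPM in the WT hearts, with *Hbb-bh1* the most abundant. *Gata1*, *Alas2* and *Kel* were among those called lower by edgeR. With a heart left out each was called in 1 of 6 fits, the one without *Smyd1-KO* heart 1. The median log2 fold change of the 12 markers was -2.61. DESeq2 called 9 of the 12 lower, and 9.29% of all genes in either direction. A gene was called when its adjusted *P* was under 0.05 and its absolute log2 fold change at least 0.5. The epicardial sum was 188, 262 and 349 CPM in the mutants and 145 to 179 CPM in WT, and edgeR called 0 of its 8 genes (3 with an unadjusted *P* under 0.05, 3 called by DESeq2, which called 9.29% of all genes). An unadjusted *P* under 0.05 was found for 25.1% of all tested genes. edgeR also called 0 of 10 endothelial, 3 macrophage and 9 foregut markers tested (6, 2 and 2 with an unadjusted *P* under 0.05, and 3, 1 and 2 called by DESeq2). The endothelial sum lay between 676 and 1050 CPM and the foregut sum between 615 and 1260 CPM, both highest in *Smyd1-KO* heart 3, and the macrophage sum was at most 8.90 CPM. The most abundant genes were *Upk3b* for the epicardium, *Cdh5* for endothelium, *Krt8* for foregut and *Cd68* for macrophages. The part that these cells play in the NDRG values was not tested.

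Regulatory sequence of the family was read in RefSeq promoter windows of 300 bases (build GRCm38.p6), which were found for *Ndrg2*, *Ndrg3* and *Ndrg4*. *Ndrg1* had no window in the table. The letters ACGTG, a form of the core that HIFs bind, occurred on either strand in 1 of the 9 windows. This match lay inside the palindrome CACGTG, the E-box bound by MYC and MAX, which contains ACGTG on both strands. The other form of the core, GCGTG, was not counted. It occurs, on either strand, in windows of *Ndrg2*, *Ndrg3* and *Ndrg4*. Of all 32851 windows, 19.6% held ACGTG and 7.15% held CACGTG. The MEF2 motif, bound by a cardiac and muscle transcription factor family, was searched after the windows had been read, and occurred in 1 of the 9 windows and in 0.557% of all windows. Both matches are shown because they are the only ones among the 9 windows for these 3 motifs, with the motif letters in capitals, from chr14:51914017-51914046 on the minus strand and chr8:95677713-95677742 on the plus strand:
Ndrg2: cgttcatcctCTATTTATAGcggcccccag
Ndrg4: cgcccacccaccCACGTGggcacgcccccg
The MEF2 match of *Ndrg2* lies 32 to 23 bases before one RefSeq start, and the E-box of *Ndrg4* lies 38 to 33 bases before another. The GENCODE annotation (GRCm38) places both stretches in untranslated exons of other transcripts, exon 1 for *Ndrg2* and exon 2 for *Ndrg4*. A match describes the letters of the window and is not evidence of binding.

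In WT hearts the family was led by *Ndrg2* and *Ndrg1* was its lowest member. Per kb of exon, *Ndrg2* had 18.2 ± 6.15 CPM (SD, n = 3), *Ndrg4* had 7.76 ± 1.93, *Ndrg3* had 5.28 ± 0.325 and *Ndrg1* had 0.813 ± 0.115. The order *Ndrg2*, *Ndrg4*, *Ndrg3*, *Ndrg1* held in each of the 3 WT hearts. The level of *Ndrg4* in WT heart 3 (5.66 CPM per kb) lay next to the highest level of *Ndrg3* (5.65 CPM per kb), so these neighbours in the order were not apart beyond their spread, whereas *Ndrg2* lay above and *Ndrg1* below the others without overlap. With the longest transcript in place of all exons as the length, *Ndrg3* stood above *Ndrg4* in WT heart 3. Among 19364 tested genes with a known length, 84.3% had a lower WT level than *Ndrg2* and 30.6% a lower WT level than *Ndrg1*.

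**Figure D1:**
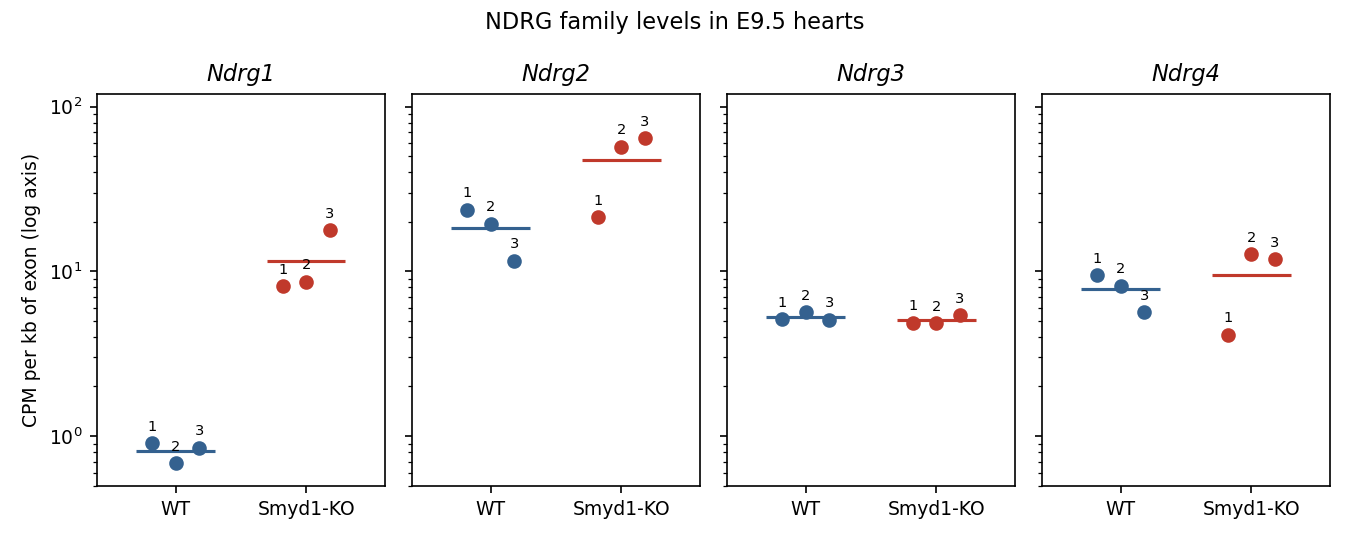
Level of each NDRG gene in CPM per kb of exon (log axis) in the 3 WT (blue) and 3 *Smyd1-KO* (red) hearts; numbers are heart numbers and lines are means. *Ndrg1* is the only member whose genotypes are apart, from at most 0.906 in WT to at least 8.11 in *Smyd1-KO*, while *Ndrg3* stays between 4.84 and 5.65.

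*Ndrg1* was the member that differed most between the genotypes. *Ndrg1* (ENSMUSG00000005125) lies on the minus strand of chr15:66929318-66969640 (GRCm38) and has 13 annotated transcripts. It had 2601, 3378 and 6665 counts in *Smyd1-KO* hearts 1, 2 and 3 and 356, 287 and 373 counts in WT hearts 1, 2 and 3. On the CPM scale these were 53.5, 57.1 and 117 in the mutants and 5.98, 4.52 and 5.60 in WT. Every mutant heart was above every WT heart, and the lowest mutant was 8.95-fold above the highest WT. As many as 15.9% of tested genes were higher in the mutants without overlap. *Smyd1-KO* heart 3 was the highest of the 6.

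The mean level of *Ndrg1* was 75.8 ± 35.5 CPM (SD, n = 3) in *Smyd1-KO* and 5.37 ± 0.755 CPM in WT, a ratio of 14.1. The log2 fold change was 3.82 ± 0.336 (SE), the 18th largest of 19372 genes. *Ndrg1* was the 1 member past the thresholds, as were 4.28% of tested genes in either direction and 2.86% as higher, and since it was chosen by this contrast nothing is read from the count. Its log2 fold change lay between 3.37 and 4.02 over the 13 settings, and was lowest without *Smyd1-KO* heart 3. Per kb of exon, 75.8% of genes were below *Ndrg1* in mutant hearts.

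The number of genes called moved with single hearts. It was 830 with all 6 hearts, 1256 without *Smyd1-KO* heart 1, 248 without *Smyd1-KO* heart 2 and 344 without *Smyd1-KO* heart 3. It was 501 without WT heart 1, 97 without WT heart 2 and 171 without WT heart 3.

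*Ndrg2*, the most abundant member, was higher in only part of the mutant hearts. *Ndrg2* (ENSMUSG00000004558; chr14:51905271-51914158, minus strand) had 3525, 11442 and 12412 counts in *Smyd1-KO* hearts 1, 2 and 3 and 4800, 4188 and 2623 counts in WT hearts 1, 2 and 3. The levels were 72.5, 194 and 217 CPM in the mutants and 80.6, 66.0 and 39.4 CPM in WT. *Smyd1-KO* hearts 2 and 3 were above all WT hearts, and *Smyd1-KO* heart 1 lay between WT hearts 1 and 2, so that the genotypes overlapped.

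The mean level of *Ndrg2* was 161 ± 77.7 CPM (SD, n = 3) in *Smyd1-KO*, or 205 CPM without heart 1, and 62.0 ± 20.9 CPM in WT. The log2 fold change was 1.38 ± 0.424 (SE). Without *Smyd1-KO* heart 1 it was 1.73. In that fit 6.28% of tested genes were called, *Ndrg2* among them, and with no filter on low counts 3.09% of genes were, again with *Ndrg2*. Relative to the WT mean on the log2 scale, *Smyd1-KO* hearts 1, 2 and 3 stood at 0.29, 1.70 and 1.87. The SD between the 3 mutant hearts (0.870 on the log2 scale) was above that of 94.2% of genes, and rests on heart 1, since hearts 2 and 3 were close.

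*Ndrg4*, the member best known from the myocardium, did not separate the genotypes. *Ndrg4* (ENSMUSG00000036564; chr8:95676980-95715119, plus strand) had 979, 3680 and 3284 counts in *Smyd1-KO* hearts 1, 2 and 3 and 2756, 2542 and 1843 counts in WT hearts 1, 2 and 3. The levels were 20.1, 62.2 and 57.5 CPM in the mutants and 46.3, 40.0 and 27.7 CPM in WT. *Smyd1-KO* heart 1 was the lowest of the 6 hearts and *Smyd1-KO* hearts 2 and 3 the highest. The means were 46.6 ± 23.1 and 38.0 ± 9.46 CPM (SD, n = 3), and the log2 fold change was 0.30 ± 0.399 (SE). Without *Smyd1-KO* heart 1 the mutant mean was 59.9 CPM and the log2 fold change 0.66.

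*Ndrg3* was the steadiest member. *Ndrg3* (ENSMUSG00000027634; chr2:156927345-156992056, minus strand) had 1981, 2398 and 2589 counts in *Smyd1-KO* hearts 1, 2 and 3 and 2553, 3009 and 2831 counts in WT hearts 1, 2 and 3. The levels were 40.7, 40.6 and 45.4 CPM in the mutants and 42.9, 47.4 and 42.5 CPM in WT, with overlapping genotypes. The log2 fold change was -0.07 ± 0.0874 (SE), and the coefficient of variation between hearts was 6.43% in *Smyd1-KO* and 6.16% in WT. The SD of *Ndrg3* between mutant hearts was larger than that of 21.3% of genes. NDRG3 is regulated as a protein, which these RNA counts do not measure.

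**Figure D2:**
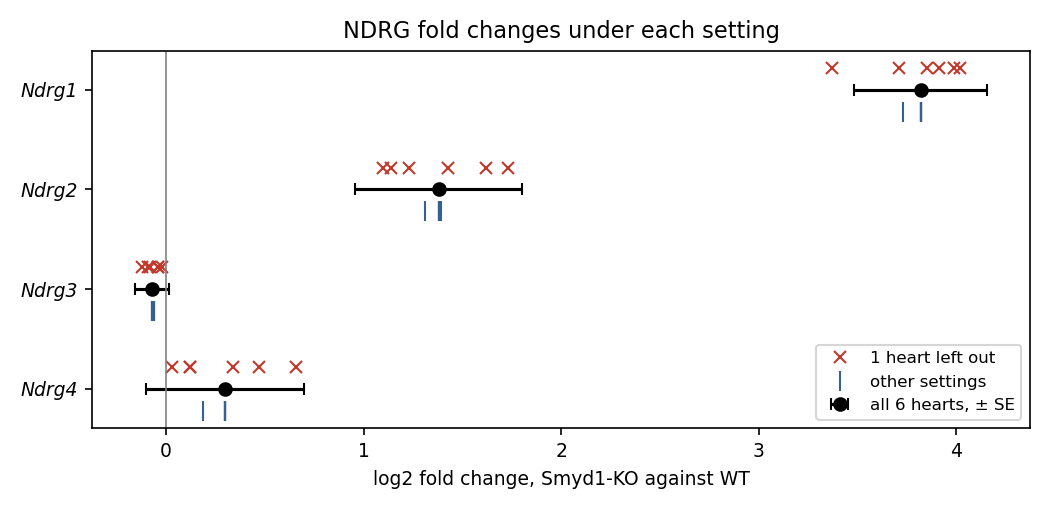
Log2 fold change of each NDRG gene between *Smyd1-KO* and WT hearts (x axis), with all 6 hearts (black, ± SE), with 1 heart left out (crosses) and under the other settings (ticks). *Ndrg1* stays between 3.37 and 4.02, *Ndrg2* between 1.10 and 1.73, *Ndrg4* between 0.03 and 0.66, and *Ndrg3* within 0.12 of 0.

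The make-up of the family differed between the genotypes. *Ndrg1* held 2.31, 2.02 and 3.67% of the summed per-kb level of the 4 members in WT hearts 1, 2 and 3 and 21.1, 10.4 and 17.9% in *Smyd1-KO* hearts 1, 2 and 3. *Ndrg4* held 24.1, 24.1 and 24.4% in WT and 10.7, 15.3 and 11.9% in the mutants. *Ndrg2* remained the largest part in every heart, with 60.5, 57.2 and 50% in WT and 55.5, 68.5 and 64.7% in *Smyd1-KO*. The share of *Ndrg4* was thus almost equal in the 3 WT hearts, although its level was not.

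The summed level was 32.1 ± 8.17 CPM per kb (SD, n = 3) in WT and 73.5 ± 31.4 CPM per kb in *Smyd1-KO* hearts, or 91.0 CPM per kb without *Smyd1-KO* heart 1. In the single hearts the sum was 39.2, 33.9 and 23.2 CPM per kb in WT and 38.4, 83.2 and 98.9 CPM per kb in *Smyd1-KO*. *Smyd1-KO* heart 1 had a sum within the WT range and the highest share of *Ndrg1*. In the mutant hearts *Ndrg2* led in all 3, and the order below it differed: *Ndrg1* was second in hearts 1 and 3, and *Ndrg4* in heart 2. *Ndrg1* and *Ndrg4* overlapped in their per-kb ranges there, from 8.11 to 17.7 and from 4.12 to 12.7.

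**Figure D3:**
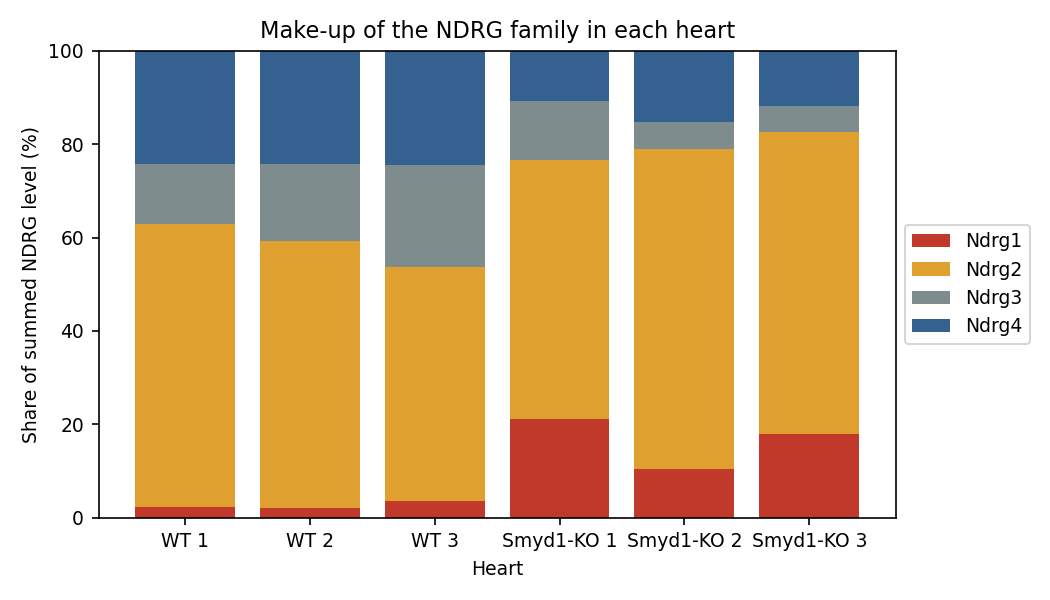
Share of each NDRG gene in the summed CPM per kb of the 4 members (y axis, %), for each heart (x axis). *Ndrg1* makes up at most 3.67% in the WT hearts and at least 10.4% in the *Smyd1-KO* hearts, and *Ndrg2* is the largest part in all 6.

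*Ndrg2* and *Ndrg4* were lowest within each genotype in the heart with the least cardiomyocyte RNA, *Smyd1-KO* heart 1 and WT heart 3. The members were therefore also set against the summed cardiomyocyte markers of the same heart, a scale chosen after the marker values had been seen. For *Ndrg4* this gave 2.08, 1.96 and 2.11 CPM per 1000 CPM of markers in WT hearts 1, 2 and 3 and 2.02, 3.01 and 2.77 in *Smyd1-KO* hearts 1, 2 and 3. The WT hearts were almost level on this scale, *Smyd1-KO* heart 1 was among them, and the genotypes still overlapped.

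*Ndrg2* had 3.63, 3.22 and 3.00 CPM per 1000 CPM of markers in WT hearts 1, 2 and 3 and 7.27, 9.35 and 10.5 in *Smyd1-KO* hearts 1, 2 and 3. All mutant hearts were above all WT hearts on this scale, the lowest 2.0-fold above the highest, unlike on the CPM scale. Of all tested genes, 6.99% were higher without overlap on this scale. The separation of *Ndrg2* rests on dividing *Smyd1-KO* heart 1 by its low marker sum, and as the scale was chosen after the values were seen it is a description. The mean log2 difference was 1.45. The *Ndrg1* values were 5.36, 2.76 and 5.63 in the mutants and 0.269, 0.221 and 0.426 in WT, again without overlap. *Ndrg3* gave 4.08, 1.96 and 2.19 in the mutants and 1.93, 2.32 and 3.24 in WT. As its CPM varied little, dividing by the marker sum makes it highest in the 2 hearts with the least cardiomyocyte RNA. Of the 13 markers edgeR called 0 (2 with an unadjusted *P* under 0.05, 1 called by DESeq2, and 2 called higher without *Smyd1-KO* heart 1), their median log2 fold change was -0.12, and their part in the *Ndrg2* result was not tested beyond this scale. Among them *Nppa*, the atrial natriuretic peptide gene, had the largest log2 fold change (1.44, named after its values were seen). *Nppa* had 182, 471 and 398 CPM in the mutants and 184, 121 and 82.3 CPM in WT. Of the 13 markers, 10 were lower on the log2 scale, *Myh6* by the most (-0.71, also named after its values were seen). *Myh6* had 1410, 2620 and 2840 CPM in the mutants and 3730, 4590 and 2930 CPM in WT. It was the only marker whose genotypes did not overlap in CPM, and it is part of the sum used as the scale.

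**Figure D4:**
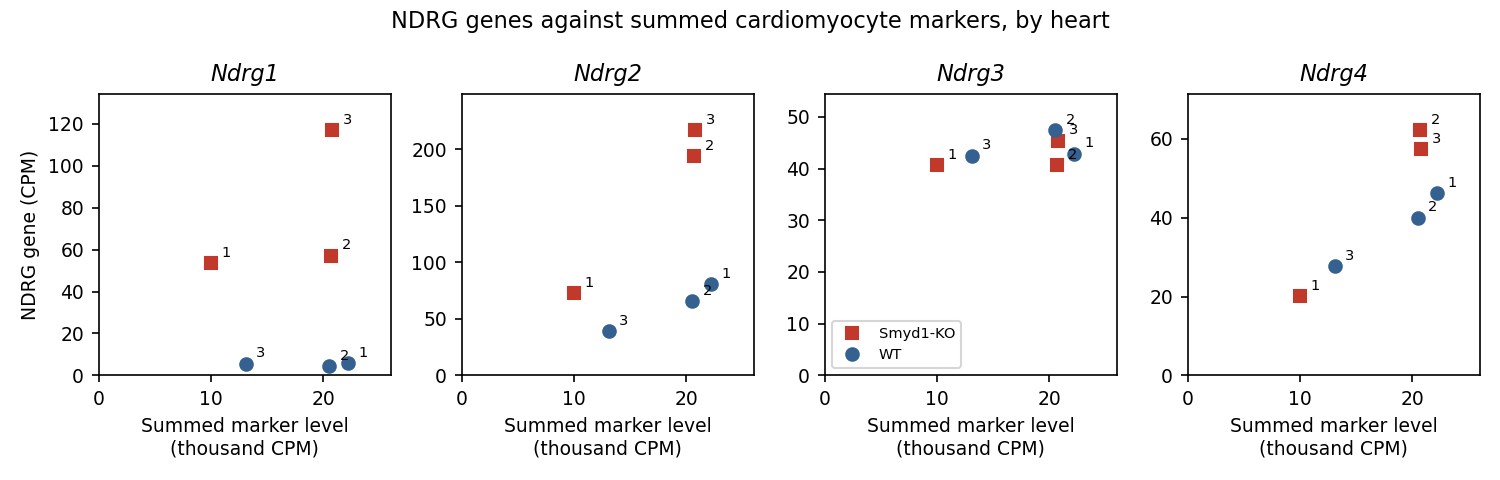
CPM of each NDRG gene (y axis) against the summed CPM of 13 cardiomyocyte markers (x axis, in units of 1000), for the 3 *Smyd1-KO* (red squares) and 3 WT (blue circles) hearts. *Smyd1-KO* heart 1 and WT heart 3 lie to the left and have the lowest *Ndrg2* and *Ndrg4* of their genotype.

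The oxygen-sensing system, a known regulator of *Ndrg1*, was measured in the same hearts. The hydroxylases *Egln1* and *Egln3*, which mark HIF-α proteins for destruction and are themselves HIF targets, rose in *Smyd1-KO* hearts, with log2 fold changes of 1.71 ± 0.118 (SE; adjusted *P*=0.000996 by edgeR) and 2.51 ± 0.164 (adjusted *P*=0.000869 by edgeR). *Egln1* was the most abundant gene of the list, with 345, 425 and 421 CPM in the mutants and 132, 121 and 111 CPM in WT. *Hif1a*, the oxygen-regulated HIF subunit, fell at the RNA level, from 219 ± 5.22 CPM in WT to 145 ± 9.32 CPM (SD, n = 3; log2 fold change -0.59, adjusted *P*=0.0123 by edgeR). *Hif3a* rose by 1.18 on the log2 scale (adjusted *P*=0.0288 by edgeR). With each heart left out once, *Egln1* and *Egln3* were called in 6 of 6 fits, *Hif1a* in 4 (not without WT heart 2 or 3) and *Hif3a* in 1 (without *Smyd1-KO* heart 1). Of the 10 genes of the list, 3 were called higher and 1 lower (against 2.86% and 1.42% of all genes), with a median log2 fold change of 0.30, against 0.00 over all genes. *Epas1*, which encodes HIF-2α, had 22.1, 24.4 and 60.9 CPM in the mutants and 21.0, 19.1 and 14.5 CPM in WT. It was highest in *Smyd1-KO* heart 3, as were the endothelial, epicardial and foregut marker sums.

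*Ndrg1* was set beside other HIF targets, and since it was chosen by this contrast its place among them is a description. Of 32 targets on the list, edgeR called 29 higher and 0 lower, where 2.86% of all genes were called higher. DESeq2 called 30 higher and 1 lower, and 9.29% of all genes in either direction. Of the 32 targets, 1 had a larger log2 fold change than *Ndrg1*. This was *Ndufa4l2*, a mitochondrial complex subunit homologue, which rose by 4.37 ± 0.176 on the log2 scale (SE; adjusted *P*=0.000126 by edgeR). *Ddit4*, an inhibitor of mTORC1, and *Stc2*, a secreted stanniocalcin, followed *Ndrg1* at 2.99 and 2.98. *Vegfa* (1.44), the glucose transporter gene *Slc2a1* (1.37) and *Ldha* (0.62), the most abundant of the list, lay lower. The 3 that edgeR did not call were *Hk1*, *Pfkfb4* and *Eno1* (log2 fold changes of 0.39, -0.51 and 0.68). Among these, DESeq2 called *Pfkfb4* lower and *Eno1* higher. The list was written with the rise of such genes in these hearts known. Its count was 15 without WT heart 2, 18 without WT heart 3 and 12 with the replicate number as a block, where 0.305% of all genes were called in either direction.

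The high value of *Ndrg1* in *Smyd1-KO* heart 3 was set beside these targets. Their median on the log2 scale relative to WT was 1.20, 1.52 and 1.57 in *Smyd1-KO* hearts 1, 2 and 3, where *Ndrg1* stood at 3.32, 3.41 and 4.44. Of the 32 targets, 16 had their highest CPM among the mutants in *Smyd1-KO* heart 3, as *Ndrg1* did, 12 in *Smyd1-KO* heart 2 and 4 in *Smyd1-KO* heart 1. *Slc2a1*, with 1950, 2150 and 2570 CPM in mutants 1, 2 and 3, was among the first, *Ndufa4l2* (34.0, 50.4 and 45.8 CPM) among the second and *Ddit4* (607, 540 and 518 CPM) among the last. *Ndrg2* had a log2 fold change exceeded by 16 of the 32 targets, and *Ndrg3* and *Ndrg4* were below 31 of them.

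**Figure D5:**
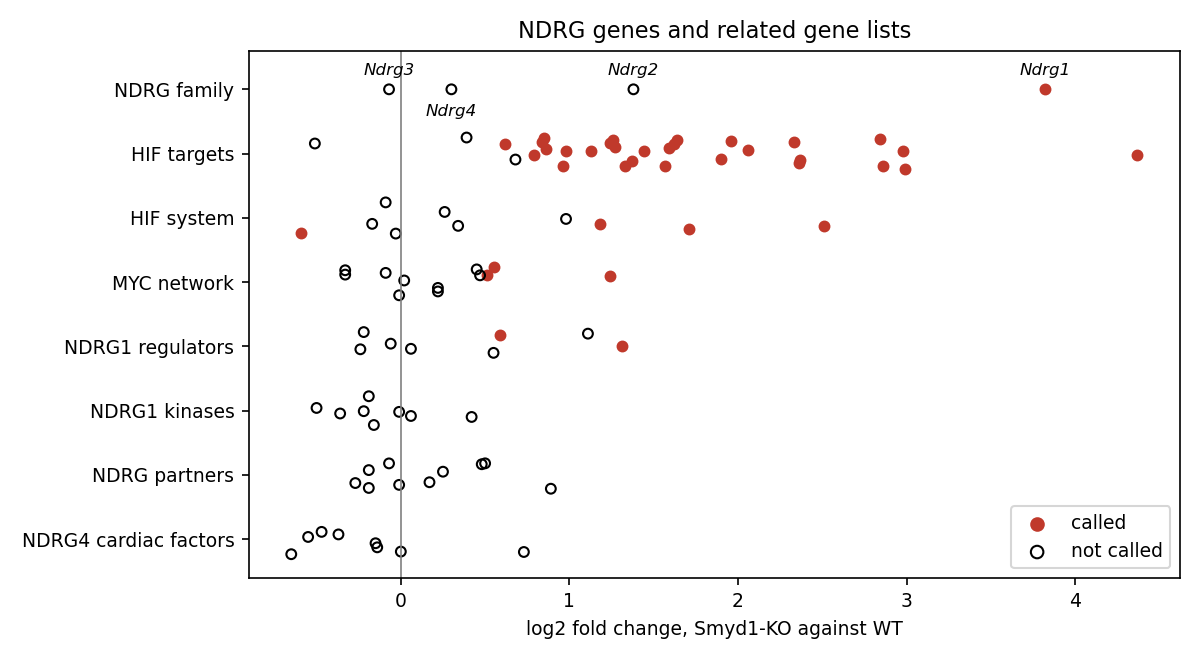
Log2 fold change between *Smyd1-KO* and WT hearts (x axis) of the 4 NDRG genes and of the genes of 7 lists tied to them (rows; filled, called; open, not called; vertical scatter is for legibility). *Ndrg1* (3.82) lies beyond every listed gene except *Ndufa4l2* (4.37), while the kinases, partners and cardiac factors hold no called gene.

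The MYC network gives the family its name. *Mycn*, its most abundant gene, had 231, 194 and 137 CPM in mutants 1, 2 and 3 and 168, 143 and 169 CPM in WT hearts 1, 2 and 3 (log2 fold change 0.22, adjusted *P*=0.491 by edgeR). Its genotypes overlapped, and both its highest and its lowest value were in mutants, *Smyd1-KO* hearts 1 and 3. Of the 12 genes of the network, 3 were called higher and 0 lower (against 2.86% and 1.42% of all genes), with a median log2 fold change of 0.22. These were the MYC antagonists *Mxi1* (1.24), which is also on the HIF target list, and *Mnt* (0.55), and *Myc* itself (0.51, adjusted *P*=0.0428 by edgeR). With each heart left out once, *Mxi1* was called in 5 of 6 fits (not without WT heart 2), *Mnt* in 1 (without *Smyd1-KO* heart 1) and *Myc* in 0.

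Other factors known to act on *NDRG1* formed a list of 8 with a median log2 fold change of 0.31. Of these, 2 were called higher and 0 lower (against 2.86% and 1.42% of all genes): the immediate early gene *Egr1*, at 11.4 ± 3.33 against 4.57 ± 0.781 CPM (SD, n = 3; log2 fold change 1.31, adjusted *P*=0.0357 by edgeR), and the stress response factor *Atf4* (0.59, adjusted *P*=0.0389 by edgeR), the most abundant of the 8. *Wt1*, which is also an epicardial marker, had a log2 fold change of 1.11 (adjusted *P*=0.0945 by edgeR), with 29.3, 53.1 and 75.3 CPM in the mutants and 30.8, 21.4 and 20.8 CPM in WT. DESeq2 called 3 of the 8 higher, as did edgeR without *Smyd1-KO* heart 1. With a heart left out, *Egr1* and *Atf4* were each called in 1 of 6 fits, the one without *Smyd1-KO* heart 1. *Trp53*, which encodes p53, had a log2 fold change of -0.22 (adjusted *P*=0.279 by edgeR).

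Of the kinases that phosphorylate NDRG1 and their activators, 8 of 9 were tested and 0 were called by edgeR (4 with an unadjusted *P* under 0.05), with a median log2 fold change of -0.17. *Sgk1* had 13.7, 25.5 and 26.3 CPM in the mutants and 16.0, 17.0 and 16.0 CPM in WT, overlapping through *Smyd1-KO* heart 1, and 1 gene of the list was called higher without that heart. The nearest to the threshold was *Mtor* (log2 fold change -0.36, adjusted *P*=0.0864 by edgeR). Of 10 genes for partners of NDRG proteins, such as *Rab4a*, *Ctnnb1* and *Hspa8*, the most abundant, 0 were called by edgeR (2 with an unadjusted *P* under 0.05), with a median log2 fold change of 0.08. DESeq2 also called 0 in both lists.

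Cardiac transcription factors expressed with *Ndrg4* were set beside it. Of the 8, 0 were called by edgeR or DESeq2 (1 had an unadjusted *P* under 0.05), 7 had a negative log2 fold change and the median was -0.26. *Nkx2-5*, the most abundant, had 158, 312 and 345 CPM in mutants 1, 2 and 3 and 347, 340 and 213 CPM in WT hearts 1, 2 and 3. It was lowest in *Smyd1-KO* heart 1 and next lowest in WT heart 3, as *Ndrg4* was. Most genes of the list did not have these lowest hearts in this order.

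The tested genes whose pattern over the 6 hearts was most like that of each member were ranked by the Euclidean distance of centred log2 CPM among 19371 genes. Nearest to *Ndrg1* were *Ier3* (distance 0.815; an immediate early stress gene), *Cyp2s1* (0.864; a cytochrome P450), *Ascl2* (1.0), *Nrn1* (1.02) and *F630040K05Rik* (1.12). These 5 had log2 fold changes from 3.27 to 3.75, and *Cyp2s1* was highest in *Smyd1-KO* heart 3 as *Ndrg1* was, with 11.3, 14.9 and 30.2 CPM in the mutants.

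Nearest to *Ndrg2* were *A530016L24Rik* (0.179), *Gm45745* (0.321), *Irx6* (0.356), *Rpl29* (0.429) and *Dkk3* (0.436). *A530016L24Rik* had 6.73, 20.2 and 20.4 CPM in the mutants and 7.23, 6.22 and 3.51 CPM in WT, the same order of hearts as *Ndrg2*. Nearest to *Ndrg4* were *Trim63* (0.249; a muscle ubiquitin ligase), *Cend1* (0.262), *Gch1* (0.272), *Myl2* (0.277; the ventricular myosin light chain) and *4930426I24Rik* (0.304). *Myl2* had 207, 570 and 539 CPM in the mutants and 518, 373 and 247 CPM in WT. Nearest to *Ndrg3* were *Lin37* (0.0667), *Map2k3os*, *March8*, *Slc35c1* and *Cpd* (0.0878), all with log2 fold changes between -0.10 and -0.04. Distances are shorter for genes that vary little, as *Ndrg3* does, and are not compared between members. No member was among the 5 genes nearest to another.

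The neighbours of *Ndrg1* on chromosome 15 differed less than *Ndrg1*, which was itself chosen by its difference. *Wisp1*, 6116 bases away, had 17.0, 17.8 and 54.9 CPM in the mutants and 16.8, 12.4 and 13.7 CPM in WT, and was high in *Smyd1-KO* heart 3 alone (log2 fold change 1.06, adjusted *P*=0.196 by edgeR). *St3gal1*, at 133234 bases on the other side, rose by 0.63 ± 0.111 on the log2 scale (SE; adjusted *P*=0.0252 by edgeR), and with a heart left out it was called in 1 of 6 fits, the one without *Smyd1-KO* heart 1. Beside *Ndrg4*, the methyltransferase gene *Setd6*, at 761 bases, fell by 0.58 on the log2 scale (adjusted *P*=0.0288 by edgeR; called in 1 of the 6 fits, without *Smyd1-KO* heart 1), while *Gins3* (-0.30), at 31919 bases, was not called. The neighbours of *Ndrg2* (*Slc39a2*, -0.46, and *Arhgef40*, 0.03) and of *Ndrg3* (*Sla2*, -0.94, and *Gm14276*, 0.08) were not called either.

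The members share little sequence at the length of a read. The longest run of identical bases between transcripts of 2 members was 33, in *Ndrg2* and *Ndrg4*. Of the 75-base stretches in *Ndrg1* transcripts, 4.71% also occur in *Gm17035* or *Gm2895*, genes on the opposite strand that overlap its exons by 419 and 137 bases. Whether the counting used strand is not given in the sources used here, so reads in these bases could belong to either gene. *Gm17035* had 0 counts in every heart and *Gm2895* at most 9. For *Ndrg3* 1.93% of stretches occur in other genes, and for *Ndrg2* and *Ndrg4* 0%.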

How the data were processed

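Poly A RNA of 3 *Smyd1-KO* and 3 WT E9.5 hearts was sequenced by the authors as paired-end reads and aligned to mm10 with STAR in bcbio-nextgen. The deposited raw counts per gene are whole numbers without normalization. A deposited normalized signal table was compared with the raw counts only. In the 23116 to 23719 genes per heart with counts and 1 matching symbol, it holds the counts divided by 1 factor per heart (relative tolerance 1e-06). The counting tool, annotation and strand setting are not given in the sources used here. Genotypes and replicate numbers came from the labels, and 0 columns lacked a sample.

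The members and gene lists were chosen with earlier results of these data known. Counts were fitted in edgeR 4.0.16 (R 4.3.3) with filterByExpr, TMM, glmQLFit and glmQLFTest on genotype, with Benjamini-Hochberg adjustment over 19372 genes; edgeR was checked on simulated data. The SE is the log2 fold change divided by the square root of F. The common biological coefficient of variation was 22.5%. Lengths and positions came from GENCODE (GRCm38). Profiles used log2 CPM with a prior count of 2. For *Aldoa*, which has 2 identifiers, the gene with more counts was used. Named genes were the members, *Smyd1*, list genes that were called, near the threshold or most abundant, the 5 nearest profiles, and the adjacent genes; *Vegfa*, *Slc2a1* and the marker genes that set *Smyd1-KO* heart 1 apart were added with their values known. One erythroid and 1 neural crest marker are not reported here. The methods name no molecular identifiers. Nothing says that same-numbered hearts share a litter.

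Alternatives were RLE and upper-quartile normalization, DESeq2 1.42.0, other filters, no limit on the fold change, total counts, the longest transcript as length, a replicate block, and leaving out each heart. The scale relative to cardiomyocyte markers was added after the data were seen.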

Additional observations from a re-analysis of the deposited data

How the results depend on the processing

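The log2 fold changes of *Ndrg1*, *Ndrg2*, *Ndrg3* and *Ndrg4* kept their sign in all 13 call settings. With edgeR and 6 hearts 830 genes were called. DESeq2 called 1749 and leaving out 1 heart gave 97 to 1256. The replicate number did not pair the hearts: same-numbered hearts had a mean correlation of deviations of -0.151 (-0.216, -0.0538 and -0.182), against 0.0733 for different numbers. With the number as a replicate block, 59 genes were called (0.305%), among them *Ndrg1* (log2 fold change 3.73), 12 HIF targets in place of 29, and 2 genes of the other lists in place of 12. The family had 1 called member, and 2 with no filter on low counts (1025 genes called, 3.09%) or without *Smyd1-KO* heart 1 (1256 genes called, 6.28%), where *Ndrg2* joined, so that leaving out 1 heart gave 1 to 2. HIF targets called higher ran from 15 to 30 with 1 heart left out. Genes of the other lists called ran from 2 to 28, and were 26 with no filter on low counts and 30 with DESeq2, the only setting in which *Smyd1* was called. With the longest transcript as length, the means of *Ndrg1*, *Ndrg2*, *Ndrg3* and *Ndrg4* were 1.33, 29.5, 11.0 and 12.3 CPM per kb in WT and 18.7, 76.6, 10.5 and 15.0 CPM per kb in *Smyd1-KO*. Relative to cardiomyocyte markers, a scale chosen after seeing the data, the log2 difference of *Ndrg3* changed sign, from -0.07 to 0.09. This scale divides a level that varied little by the marker sum. The cause of the other shifts was not tested.

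Cardiomyocyte and neural crest markers set *Smyd1-KO* heart 1 apart and erythroid markers differed between the genotypes, so values of whole hearts join level per cell and cell make-up. Counts per gene do not separate transcripts, and the protein was not measured.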
